A study of Homo sapiens with 6 samples.

Results

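The unfolded protein and amino acid stress response was examined through 31 genes, listed by name from the pathway with no rule on their values (earlier results from these tumors were known when the list was made), out of 18132 genes that had a probe set naming them alone. Of these, 16 form an ATF4 arm, made of the transcription factor ATF4, its stress partners and its targets in amino acid supply. The other 15 form an ER arm, made of the transcription factor XBP1 and the chaperones, folding enzymes and disposal factors of the endoplasmic reticulum (ER). All 31 had a probe set above the filter on dim signals, so every count below covers all members. Each gene was read from its brightest probe set over the 6 arrays.

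Values are from xenografts of CRL-5889, an established human line of lung squamous carcinoma, harvested from nude mice 4 weeks after implantation. Cells in 3 tumors had been transfected with the TRA2B-DNAH5 fusion, and cells in the other 3 with the vector, both in the same host strain. Nude mice lack a thymus and mature T cells but keep other immune cells, and the labels do not say how many transfected cell populations or mice the tumors represent. The p values therefore measure spread between these tumors, and a difference between the transfected populations cannot be told apart from the fusion.

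When unfolded proteins pile up in the ER, the sensors PERK, IRE1 and ATF6 are activated. IRE1 splices XBP1 mRNA, and spliced XBP1 and cleaved ATF6 induce chaperones through promoter elements called ERSE and UPRE. PERK and its sister kinases, one of which senses missing amino acids, phosphorylate eIF2alpha, which lowers bulk translation and raises that of ATF4, and ATF4 then induces amino acid transporters and synthetic enzymes through elements called CARE. Both responses are active in many solid tumors. ATF4 translation, XBP1 splicing and ATF6 cleavage are not measured by transcript levels, and XBP1 was read from 1 probe set whose splice form is not stated.

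The 6 arrays had median log2 levels from 6.27 to 6.39. Vector tumor 1 was set off from the rest, with a score of 55.8 on a first principal component that held 42.4% of the variance over all probe sets, against scores from -14.8 to -2.73 in the other 5 tumors. It was the highest or the lowest of the 6 tumors for 17 of the 31 members (over all genes it was the highest for 27.2% and the lowest for 28.8%), so the value without it is given beside each member whose log2 fold change then moved by over 1.5 times or changed sign. TRA2B averaged 11.69 ± 0.11 with the fusion and 11.65 ± 0.084 with the vector, and DNAH5 7.39 ± 0.17 and 7.40 ± 0.45 (SD, n = 3 each), which does not check the construct because its content is not stated. Of the squamous markers, the lineage factor SOX2 was bright but lower in every fusion tumor (8.70 to 8.92, against 9.24 to 10.10), with a log2 fold change of -0.83 (SE 0.19, limma adjusted p = 0.369), and -1.04 without vector tumor 1. Its part in the members' values was not tested. KRT5, KRT14 and PKP1 were dim (4.90 to 5.90) and DSG3 and DSC3 lay below the filter level of 4.94. TP63 and KRT6A were not analysed here.

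None of the 31 members passed the test between fusion and vector tumors (limma, Benjamini-Hochberg adjustment over 13694 genes, adjusted p threshold 0.05; 10 genes, or 0.073%, passed over all genes, 8 of them higher, 0.0584%, and 2 lower, 0.0146%). The smallest adjusted p among members was 0.708, for MANF. At an unadjusted limma p below 0.05 there were 6 members (19.4%), against 5.89% of all genes. Of these, 4 were higher and 2 lower in fusion tumors, where 3.16% and 2.73% of all genes were. The 3 fusion values lay wholly above or wholly below the 3 vector values for 10 members (32.3%), against 11.7% of all genes, with 7 higher and 3 lower, beside 5.94% and 5.74% of all genes. The differences among those 10 ran from 1.11-fold to 1.34-fold, and the 95% confidence intervals of all 31 members excluded a rise above 1.54-fold and a drop beyond 1.71-fold.

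**Figure D1:**
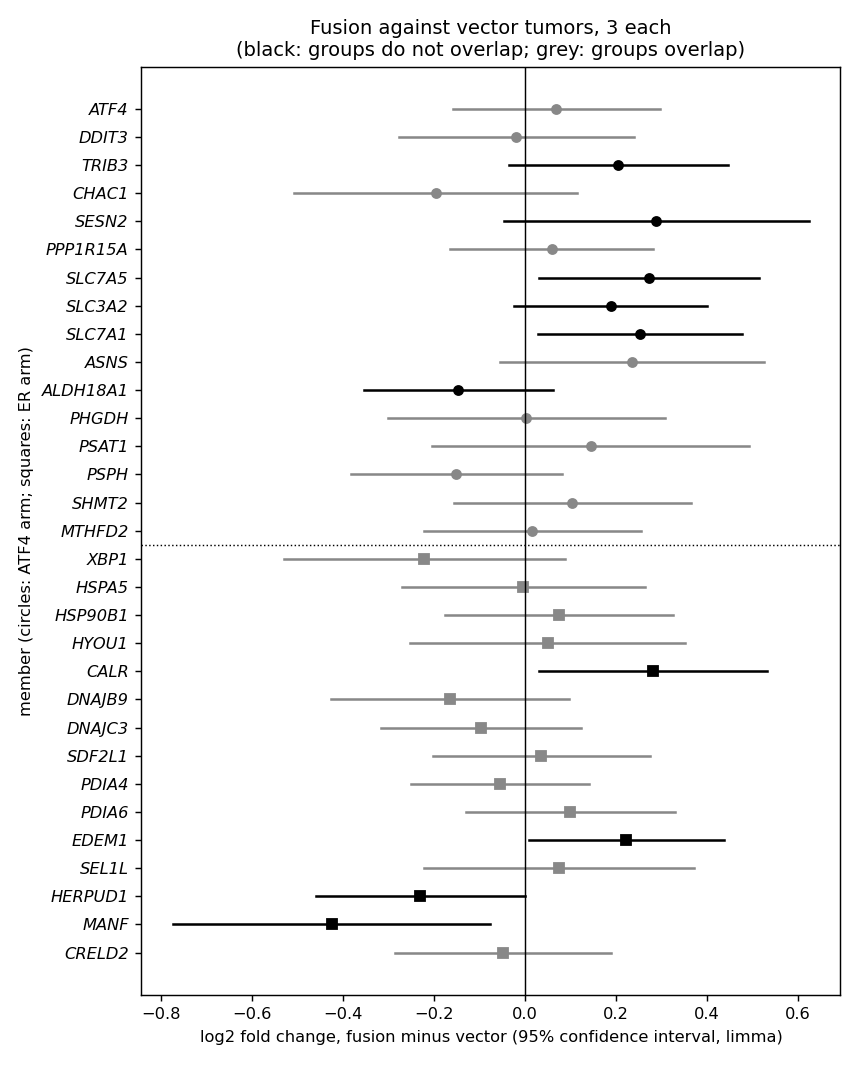
Log2 fold change (fusion minus vector, x axis) of each of the 31 members with its 95% confidence interval from limma, ATF4 arm as circles above the dotted line and ER arm as squares below it. The 10 members in black have groups that do not overlap; MANF lies farthest from 0, at -0.42.

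In the ATF4 arm 12 of 16 members were above 0 (75%, against 50.8% of all genes), with a median log2 fold change of 0.086. In the ER arm 7 of 15 were above 0, with a median of -0.0035, while the median of all genes was 0.0020. Without vector tumor 1 the medians were 0.086 and -0.073, with 11 and 5 members above 0. The median absolute difference was 0.14 over the members and 0.085 over all genes. Neither arm was tested as a list, since earlier results of these tumors were known when it was made.

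**Figure D2:**
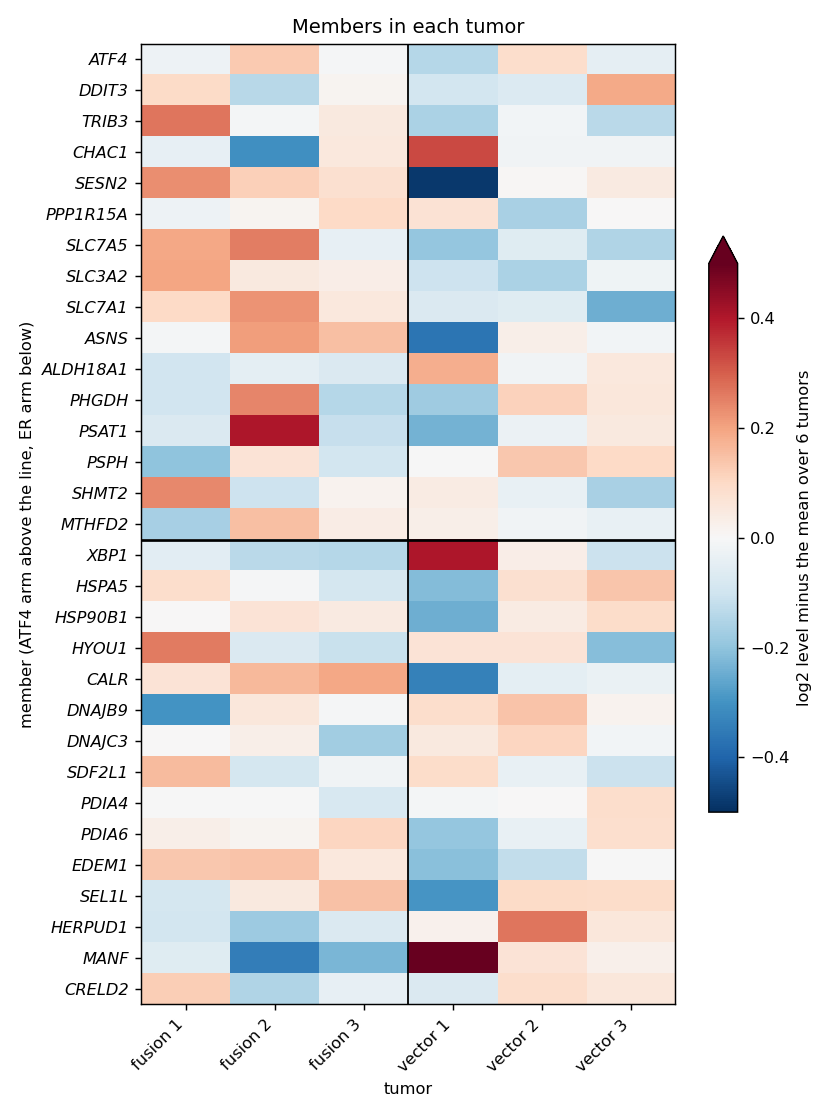
Log2 level of each member (rows) in each tumor (columns), minus that gene's mean over the 6 tumors, red for higher and blue for lower. Vector tumor 1 carries many of the strongest colours, including MANF and XBP1 (high) and SESN2 and ASNS (low); the 3 amino acid transporter rows SLC7A5, SLC3A2 and SLC7A1 are higher in fusion than in vector tumors throughout.

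Among regulators of the ATF4 arm, ATF4 itself read 11.59, 11.74 and 11.60 on the log2 scale with the fusion and 11.47, 11.70 and 11.56 with the vector, tumors in numerical order here and below. The groups overlapped, with a log2 fold change of 0.069 (95% confidence interval -0.16 to 0.30) that became 0.014 without vector tumor 1. DDIT3, which encodes the pro-apoptotic factor CHOP, stood at 6.69, 6.45 and 6.61 against 6.50, 6.52 and 6.78. It too overlapped, and its difference of -0.019 lay within the SDs of 0.12 and 0.16 (-0.068 without vector tumor 1). PPP1R15A, also called GADD34, recruits the phosphatase that reverses eIF2alpha phosphorylation, and it differed by 0.059 (SE 0.097), and by 0.11 without vector tumor 1. Exact permutation p values were 0.4 for ATF4 and 0.9 for DDIT3, where 0.1 is the smallest that 3 against 3 tumors allow.

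TRIB3, a pseudokinase that is induced by ATF4 and CHOP and curbs ATF4, had log2 levels of 8.90, 8.62 and 8.68 in fusion tumors and 8.47, 8.62 and 8.50 in vector tumors. Fusion tumor 2 and vector tumor 2 were almost equal, and fusion tumor 1 was the highest. The log2 fold change was 0.21, and 0.044 by the other probe set of TRIB3, in which groups overlapped. SESN2, a leucine sensor that restrains mTORC1, stood at 7.45, 7.34 and 7.30 in fusion tumors and at 6.73, 7.22 and 7.26 in vector tumors. Its groups did not overlap, but vector tumor 1 was far below the rest, and the log2 fold change of 0.29 became 0.12 without it. The other probe set of SESN2 gave 0.16, with groups that overlapped. CHAC1, which breaks down glutathione, pointed the other way with -0.20 (SE 0.14), and -0.081 without vector tumor 1. Its other probe set gave 0.02. Neither TRIB3 (adjusted p = 0.917) nor SESN2 (adjusted p = 0.917) passed by limma.

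All 3 amino acid transporters lay higher in every fusion tumor than in any vector tumor. SLC7A5, the LAT1 transporter for leucine and other large neutral amino acids, had log2 levels of 8.79, 8.85 and 8.56 in fusion tumors and 8.40, 8.54 and 8.45 in vector tumors. Fusion tumor 3 was only just above vector tumor 2. SLC3A2, the heavy chain (CD98) that carries LAT1 to the cell surface, stood at 9.80, 9.65 and 9.64 in fusion tumors and 9.50, 9.45 and 9.58 in vector tumors, so that its lowest fusion value was close to its highest vector value. SLC7A1, the CAT1 transporter for arginine and lysine, had 8.84, 8.96 and 8.79 in fusion tumors and 8.67, 8.68 and 8.49 in vector tumors. Here the lowest fusion value, 8.79, lay above the highest vector value, 8.68.

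The 3 transporters differed by 1.21-fold (SLC7A5), 1.14-fold (SLC3A2) and 1.19-fold (SLC7A1), and by limma their adjusted p values were 0.777, 0.915 and 0.767. Unadjusted limma p values were 0.0318, 0.0754 and 0.0309. Each had an exact permutation p of 0.1. Other probe sets pointed the same way. The 6 others of SLC3A2 gave log2 fold changes of 0.16 to 0.35 and the 1 other of SLC7A5 gave 0.24. The 3 others of SLC7A1 gave 0.28, 0.54 and, from a probe set below the filter level, 0.15. Groups overlapped in the SLC7A1 probe set at 0.54 and in an SLC3A2 probe set at 0.20. Without vector tumor 1 the log2 fold changes were 0.24, 0.18 and 0.28 in the same order. Under median centring of the arrays the unadjusted limma p of SLC7A5 was 0.0571 and that of SLC7A1 0.0710.

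Of the 7 enzymes of amino acid and folate metabolism, 6 had overlapping groups. ASNS, asparagine synthetase and a classical ATF4 target, had log2 levels of 10.98, 11.20 and 11.14 in fusion tumors and 10.63, 11.02 and 10.98 in vector tumors. Its groups overlapped, 4 probe sets gave 0.17 to 0.27, and the log2 fold change of 0.23 became 0.11 without vector tumor 1. ALDH18A1, which makes the proline precursor, lay lower in all fusion tumors (10.17 to 10.22, against 10.25 to 10.45), a difference of -0.15 (SE 0.091), and -0.092 without vector tumor 1. The other probe set of ALDH18A1 gave -0.092 with all tumors, and its groups overlapped.

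Serine and mitochondrial folate metabolism was covered by 5 enzymes. PHGDH, the entry enzyme of serine synthesis, differed by 0.0025 and MTHFD2, a mitochondrial folate enzyme, by 0.016. PSAT1, the transaminase, was at 0.14, SHMT2, which turns serine into glycine, at 0.10, and the phosphatase PSPH at -0.15. Without vector tumor 1 PHGDH changed sign to -0.086, PSAT1 was at 0.062, and MTHFD2, SHMT2 and PSPH were at 0.035, 0.15 and -0.19. Fusion tumor 2 was the highest of the 6 tumors for PHGDH (8.56), PSAT1 (9.80) and MTHFD2 (11.20), and in the arm as a whole it was the highest for 7 of 16 members. PSAT1 in the other fusion tumors (9.33 and 9.28) lay among the vector tumors (9.16 to 9.44). PSPH has closely related copies in the genome and was read from a probe set of a type that can match related transcripts, so its value is uncertain.

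**Figure D3:**
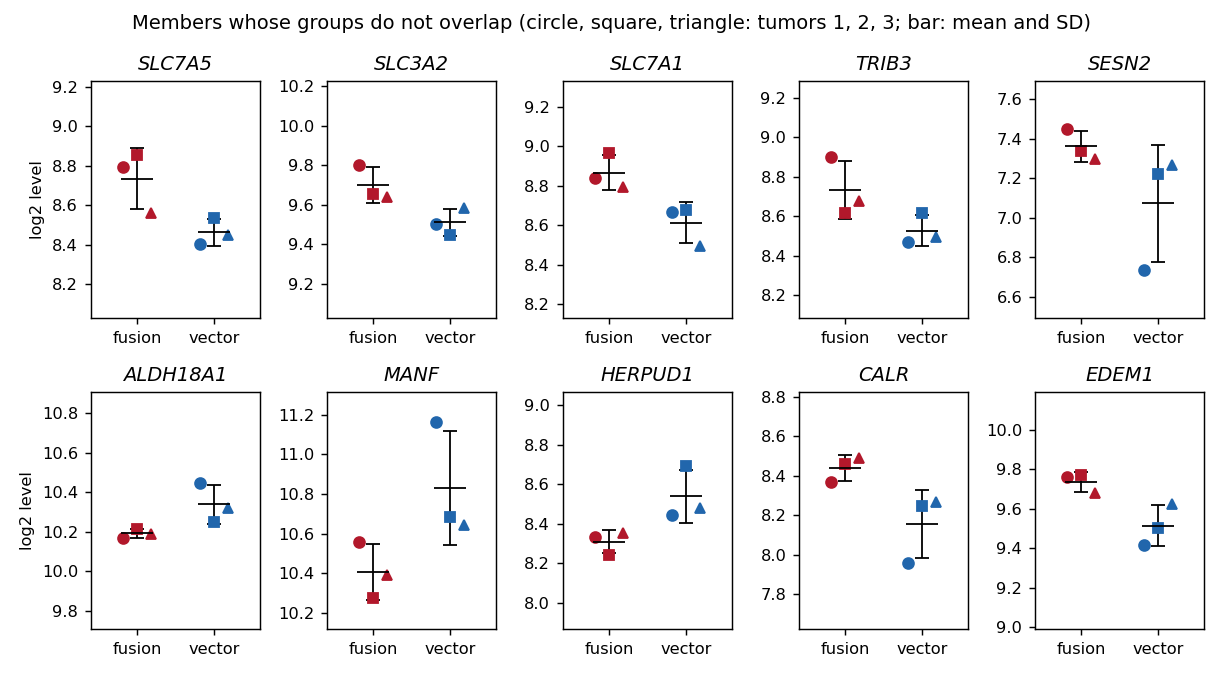
Log2 levels (y axis, all panels spanning the same range of log2 units) of the 10 members whose groups do not overlap, fusion tumors in red and vector tumors in blue, with mean and SD over 3 tumors. The lowest fusion value lies above the highest vector value at 8.79 against 8.68 in SLC7A1 and at 8.37 against 8.27 in CALR. TRIB3 fusion tumor 2 (8.62) almost touches vector tumor 2 (8.62), and in SESN2 and MANF vector tumor 1 makes much of the difference.

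CARE, searched as TGATGNAA on both strands in RefSeq promoters (GRCh38.p14, 250 bases before to 50 after each annotated start), was found for 4 of 14 ATF4 arm genes that had a promoter in the table (28.6%), against 4.46% of 27305 genes. It lay 68 bases before the start of ASNS and 209 before that of CHAC1, and 8 bases after the start of SLC7A1 and 38 after that of SLC3A2. The 4 stretches below are shown because these members hold a match to the element through which ATF4 acts on its targets. Each is in the gene's own direction with the match in capitals (on CHAC1 and SLC3A2 it is on the other strand). The other annotated starts of ASNS and SLC3A2 had no match, and binding was not measured.
ASNS (chr7:97872444-97872501): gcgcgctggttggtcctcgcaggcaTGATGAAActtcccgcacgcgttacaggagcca
CHAC1 (chr15:40953237-40953294): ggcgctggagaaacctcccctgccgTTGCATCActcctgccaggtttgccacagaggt
SLC3A2 (chr11:62881719-62881748): gtaatgtgcaggactccTTACATCAgctcc
SLC7A1 (chr13:29595663-29595692): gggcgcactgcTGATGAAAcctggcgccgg
Members sharing the match did not share a direction, with SLC7A1, ASNS and SLC3A2 at 0.25, 0.23 and 0.19 and CHAC1 at -0.20. In the ER arm HERPUD1 also held a CARE match, 176 bases before its start, with a log2 fold change of -0.23. Over the 321 tested genes that hold it, the median log2 fold change was -0.0084, with 155 above 0 and 166 below. No match was found in these windows for the other 10 ATF4 arm genes.

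In the ER arm, XBP1 had log2 levels of 9.17, 9.08 and 9.08 in fusion tumors and 9.63, 9.25 and 9.11 in vector tumors. Vector tumor 1 was the highest and vector tumor 3 lay among the fusion tumors. The log2 fold change of -0.22 became -0.073 without vector tumor 1. HSPA5, the chaperone BiP that holds the 3 ER sensors inactive and is the standard readout of ER stress, stood at 12.13, 12.04 and 11.96 against 11.83, 12.13 and 12.18. Its groups overlapped fully, with a difference of -0.0035 (95% confidence interval -0.27 to 0.26) and an exact permutation p of 1. Without vector tumor 1, its lowest tumor, the difference was -0.11. Its 6 probe sets gave -0.13 to -0.0035.

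MANF, a small ER protein that is secreted under stress and protects cells, had the largest difference of the 31 members. It stood at 10.56, 10.27 and 10.39 in fusion tumors and 11.16, 10.68 and 10.64 in vector tumors, so all fusion tumors were lower. The difference was 1.34-fold (-0.42 ± 0.15 SE as log2, limma adjusted p = 0.708). Vector tumor 1 was the highest tumor, and without it the log2 fold change was -0.26. MANF had 1 probe set, so no second reading was possible. CRELD2, another secreted ER protein that responds to the same stress, had overlapping groups and a difference of -0.048 (SE 0.10), and -0.096 without vector tumor 1.

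The other chaperones lay near 0 or pointed in different directions. CALR, the calcium-binding lectin chaperone calreticulin, had 8.37, 8.46 and 8.49 in fusion tumors and 7.96, 8.25 and 8.27 in vector tumors. All fusion tumors were higher, by 1.22-fold (0.28 ± 0.11 SE as log2, limma adjusted p = 0.777), and the second probe set gave 0.08 with groups that overlapped. Vector tumor 1 was the lowest, and without it the log2 fold change was 0.18 and the unadjusted limma p 0.0673, against 0.0318 with all tumors. HSP90B1, the ER form of HSP90, differed by 0.075 (SE 0.11) and HYOU1, a large chaperone that acts with BiP, by 0.050 (SE 0.13). For both, probe sets disagreed in sign, with 7 of HSP90B1 from -0.22 to 0.09 and 9 of HYOU1 from -0.09 to 0.31. SDF2L1 was at 0.036. Without vector tumor 1 HSP90B1 changed sign to -0.028, and HYOU1 and SDF2L1 were at 0.098 and 0.091.

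DNAJB9 and DNAJC3, co-chaperones of BiP, were at -0.16 (SE 0.11) and -0.096 (SE 0.096), both with overlapping groups. A second DNAJB9 probe set gave -0.26, lower in every fusion tumor, and another, below the filter level, gave -0.28 with overlapping groups. DNAJC3 also inhibits PERK, and its 3 probe sets ran from -0.10 to 0.19. The disulfide isomerases, which form and rearrange disulfide bonds, differed by -0.055 (PDIA4, SE 0.086) and 0.10 (PDIA6, SE 0.10). PDIA4 ran from 11.58 to 11.74 over all 6 tumors. Without vector tumor 1 the differences were -0.073 for PDIA4 and 0.028 for PDIA6.

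ER-associated degradation, which draws misfolded proteins out for the proteasome, held members on both sides. EDEM1, which targets misfolded glycoproteins, had 9.76, 9.77 and 9.68 in fusion tumors and 9.41, 9.50 and 9.62 in vector tumors. All fusion tumors were higher, by 1.17-fold (0.22 ± 0.094 SE as log2, limma adjusted p = 0.829), and all 5 probe sets, 1 of them below the filter level, were above 0. Groups overlapped in each EDEM1 probe set other than the one used. HERPUD1, a membrane protein that organises the degradation complex, stood at 8.33, 8.24 and 8.35 against 8.44, 8.69 and 8.48. Here all fusion tumors were lower, by 1.17-fold (-0.23 ± 0.10 SE as log2, limma adjusted p = 0.845), and -0.28 without vector tumor 1. Of its 4 probe sets, the 3 above the filter gave -0.26 to -0.21, and the one below it gave 0.11. Only the probe set used had groups that did not overlap. In the others above the filter, fusion tumor 3 (8.48 and 7.96) lay just above vector tumor 3 (8.47 and 7.95). SEL1L, the scaffold of the same complex, was at 0.074 with vector tumor 1 lowest (9.60, against 9.81 to 10.04 elsewhere), and at -0.055 without it.

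The counts at an unadjusted limma p below 0.05 changed when single tumors were left out, in the arms and over all genes alike. Over all genes the count was 807 of 13694 with all tumors and 538 to 1259 with 1 tumor left out. At an unadjusted limma p below 0.05 the ER arm had 4 members with all tumors, 0 without fusion tumor 2, 0 without fusion tumor 3, and 2 when fusion tumor 1 or either of vector tumors 1 and 2 was dropped, while dropping vector tumor 3 left it at 4. The ATF4 arm had 2 with all tumors, 0 without fusion tumor 1 or fusion tumor 2, 1 without vector tumor 1 or vector tumor 3, and still 2 without fusion tumor 3 or vector tumor 2. The count of members whose groups did not overlap was 4 in the ER arm with all tumors, 8 without vector tumor 3 and 4 or 5 without any other tumor, and it was 2 of 12 tested when the most variable probe set was read. In the ATF4 arm it was 6, 6 to 8 with 1 tumor left out, and 5 with the most variable probe set. Groups that are separate stay separate when a tumor is left out. This count could therefore only stay or rise, and leaving out tumors does not check it. Its share over all genes with a tumor left out is not given here. No member passed at adjusted p 0.05 with any tumor left out.

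ERSE, searched as CCAAT, any 9 bases and CCACG, and its variant ERSE-II, searched as ATTGG, any 1 base and CCACG, were looked for in the same windows on both strands. One or the other was found for 9 of 15 ER arm genes (60%), against 0.161% of 27305 genes, and for 0 of 14 ATF4 arm genes. UPRE (TGACGTGG) was found for HYOU1, where it overlaps an ERSE-II match, and for ALDH18A1, against 0.927% of genes. The 5 stretches below hold the matched ERSE or ERSE-II (HERPUD1) of XBP1, of 3 main ER chaperones and of HERPUD1, and were chosen after values were seen to show that the same element lies in members with differences of both signs, in the gene's own direction with the match in capitals; on HSP90B1 and CALR it is on the other strand. HSP90B1 holds another ERSE match, 194 bases before its start, that is not shown.
HSPA5 (chr9:125241366-125241434): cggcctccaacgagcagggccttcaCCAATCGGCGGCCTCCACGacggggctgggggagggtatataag
HSP90B1 (chr12:103930296-103930364): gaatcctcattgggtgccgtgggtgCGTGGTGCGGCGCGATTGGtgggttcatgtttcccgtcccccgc
XBP1 (chr22:28800578-28800646): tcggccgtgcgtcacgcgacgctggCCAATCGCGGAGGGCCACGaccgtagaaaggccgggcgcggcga
CALR (chr19:12938359-12938427): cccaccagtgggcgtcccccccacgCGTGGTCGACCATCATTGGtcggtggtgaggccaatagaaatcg
HERPUD1 (chr16:56932000-56932060): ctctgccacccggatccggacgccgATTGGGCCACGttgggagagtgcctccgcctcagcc
By that choice these 5 members had both signs, with CALR at 0.28, HSP90B1 at 0.075, HSPA5 at -0.0035, XBP1 at -0.22 and HERPUD1 at -0.23. Their mix of signs is therefore not a result. None of them passed the test, and HSP90B1 changed sign to -0.028 without vector tumor 1. Whether the element acts on these values was not tested. Of the 9 genes with a match, 5 were above 0 and 4 below. Over the 29 tested genes that hold a match the median was 0.0034, with 15 above 0 and 14 below. MANF and EDEM1 had no match in these windows. A match of letters is a description and not evidence of binding.

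**Figure D4:**
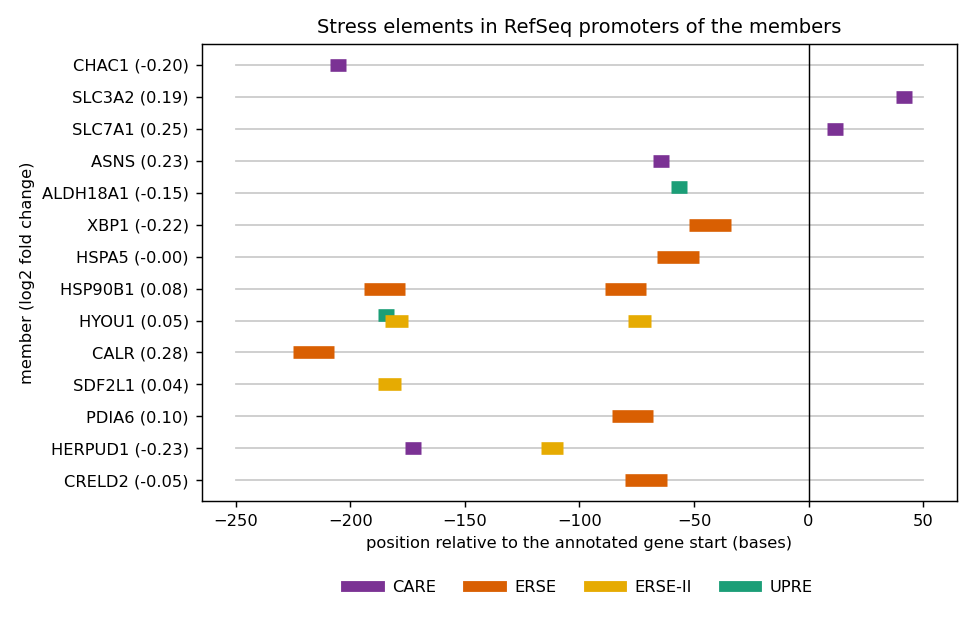
Matches to 4 stress elements (coloured bars) in RefSeq promoters of the 14 members that hold any, by position relative to the annotated start (x axis, bases; the line at 0 marks the start), with each gene's log2 fold change in parentheses. ERSE and ERSE-II lie in ER arm genes, between 225 and 34 bases before the start. Genes with the same element have fold changes of both signs, and no member passed the test.

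Other genes of the pathway gave the following background. The sensors, eIF2 kinases and activating proteases had 3 of 11 members above 0 (median -0.068) and 0 that passed. MBTPS1 and MBTPS2, the proteases that release ATF6 from its membrane, were lower in all 3 fusion tumors, with log2 fold changes of -0.25 (SE 0.10, adjusted p = 0.829 by limma) and -0.18 (SE 0.096, adjusted p = 0.934). PPP1R15B, which keeps eIF2alpha dephosphorylated at rest, was at -0.18 with overlapping groups.

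Of 17 further ATF4 targets tested, 7 were above 0 (median -0.022), 0 had an unadjusted limma p below 0.05 and 0 had groups that did not overlap. The stress factor NUPR1 was at -0.26, the glutamine transporter SLC38A2 at 0.21 and the folate enzyme MTHFD1L at -0.16. The 12 aminoacyl-tRNA synthetases, which load amino acids onto tRNA and are also ATF4 targets, had a median of -0.030, with 5 above 0 and again 0 at an unadjusted limma p below 0.05. NARS1, GARS1 and MARS1 were at -0.14, 0.16 and -0.11.

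Among 35 further ER folding and degradation genes, 19 were above 0 (median 0.011) and 0 passed. SPCS3, a signal peptidase subunit, was at 0.32 (SE 0.11, adjusted p = 0.658 by limma), the prolyl isomerase FKBP2 at 0.26 and the degradation channel protein DERL2 at -0.25, each with groups that did not overlap. Heat shock genes, a separate response driven by HSF1 (cytosolic chaperones with the mitochondrial HSPD1 and HSPE1), had 1 of 11 above 0 (median -0.15, and -0.16 without vector tumor 1) and 0 that passed. At an unadjusted limma p below 0.05 there were 4 of 11 (36.4%), 1 higher and 3 lower in fusion tumors, a larger share than the 19.4% of the members. DNAJA1, a co-chaperone of HSP70, was at -0.35 (SE 0.097, adjusted p = 0.489) and HSPA1B, an inducible HSP70, at -0.38, while the co-chaperone BAG3 was at 0.35 (SE 0.10, adjusted p = 0.523). DNAJA1 lay lower and BAG3 higher in every fusion tumor.

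**Figure D5:**
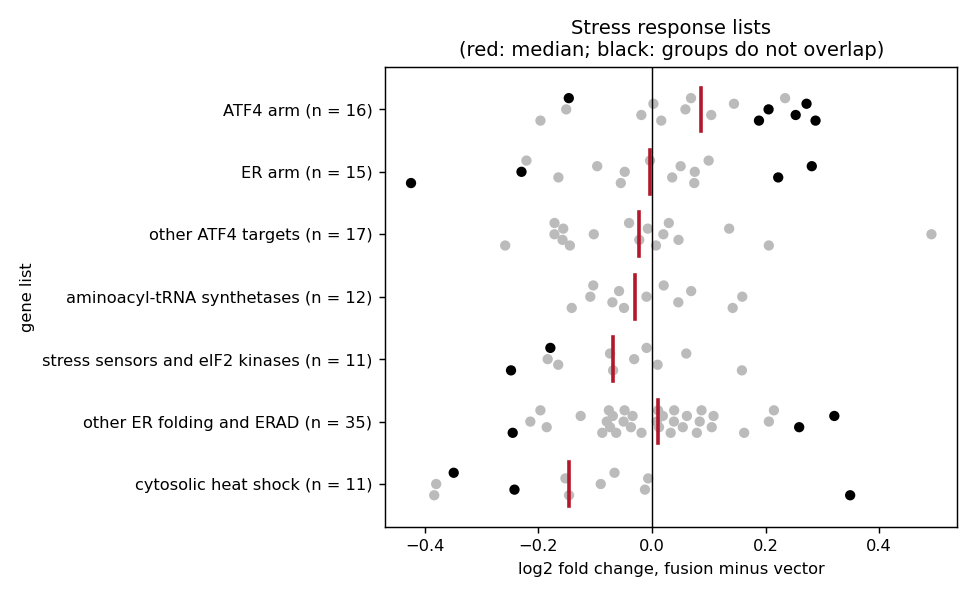
Log2 fold change (fusion minus vector, x axis) of each tested gene in the 2 arms and in 5 other stress lists, with list medians as red lines and genes whose groups do not overlap in black. Medians run from -0.15 (the list marked cytosolic heat shock) to 0.086 (ATF4 arm).

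Markers of other cell types were also read. None of those tested passed, and the smallest adjusted limma p among them was 0.112, for CD68. Whether their signal came from tumor cells or from other cells was not tested. Of 8 tested fibroblast markers, 7 were above 0, and the summed log2 level of all 10 was 63.67 to 64.91 in fusion and 61.08 to 63.56 in vector tumors. FAP (0.91) and COL1A1 (0.65) lay farthest above 0. FBN1 went the other way and was lower in every fusion tumor, at -0.50, and -0.61 without vector tumor 1. Leukocyte markers summed to 40.89 to 41.45 and 40.22 to 40.87 over 8 genes, of which PTPRC, CD14, CD163 and LYZ lay below the filter level. CD68 differed most, at 0.80, with CSF1R at 0.17 and ITGAM at 0.020. The rest were below 0, with CD14, LYZ, AIF1, CD163 and PTPRC at -0.19, -0.16, -0.039, -0.019 and -0.017. Markers of plasma cells, which are rich in XBP1 and chaperones, had summed levels of 26.99 to 27.11 and 27.06 to 27.53 over 6 genes, with MZB1, CD38 and TNFRSF17 below the filter level. Adipocyte markers had 4 of 4 tested below 0, with sums of 32.17 to 32.82 and 33.68 to 34.17 over 6 genes. Skeletal muscle markers also had 4 of 4 tested below 0 (median -0.15), with overlapping groups in each, and vector tumor 1 was the highest tumor for all 4. Without it their median was 0.088. Their sums over 6 genes were 33.41 to 37.23 in fusion and 34.42 to 38.04 in vector tumors, with MYH2 and MYL1 below the filter level. The arrays carry human probes, RNA from mouse cells could not be separated, and in whole tumors fewer cells of a type and less RNA per cell cannot be told apart. The part of other cells in the members' values was not tested.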

How the data were processed

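Expression was measured in 6 tumors with 1 Affymetrix array each, from Trizol-extracted total RNA labelled with biotin, per the labels' protocols. Groups and tumor numbers came from the titles. Probe set values were deposited on a log2 scale; the table names no unit, so the log2 scale rests on the range of its values, and their normalization is not given in the sources used here. Precision is limited by the small number of arrays. No detection call was used, and protein sequences were not analysed here.

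Of 49293 probe sets, 44988 named 1 gene by the platform annotation, 1832 named several and 2473 were unnamed here; 44961 matched the RefSeq gene table. The brightest probe set was used for each of 18132 genes, and genes below the 30th percentile of probe set means (4.94) were left out, leaving 13694. Members were read from 6 probe sets of the x type and 7 of the s type, which can match related transcripts. Of the other stress lists, CBS, GPT2, TXNDC5 and HSPA1A had no value used here.

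The 2 groups entered a limma model (version 3.58.1, R 4.3.3; two-sided lmFit and eBayes without a replicate term), adjusted by Benjamini-Hochberg over all genes tested. The model was tested on simulated data. Log2 fold changes are fusion minus vector with limma's SE; exact permutation tests are two-sided. Members and lists were chosen with earlier results of these data known. All members are named; values in every tumor are given for ATF4, DDIT3, XBP1, HSPA5 and the 5 members of each arm with the smallest p, and, chosen after values were seen, ASNS; up to 3 genes of each other list are named by p. Alternatives were the filter, probe set choice, normalization, variance trend, array weights, a replicate block and leaving out each tumor. Promoters came from RefSeq (GRCh38.p14), with promoters found for 29 of 31 members. Figures were drawn with matplotlib 3.10.9.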

Additional observations from a re-analysis of the deposited data

How the results depend on the processing

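No member was called in either arm under any of 15 alternatives, with the smallest adjusted limma p at 0.168 (HERPUD1, array weights). The number of genes called over the whole table was 10, and it was 1 with the filter at the 50th percentile, 6 with the most variable probe set, 16 with the mean of probe sets, 140 with array weights and 0 to 37 when 1 tumor was left out (0 without fusion tumor 1, with 669 genes at an unadjusted limma p below 0.05; 37 without vector tumor 1). The median log2 fold change of the ATF4 arm stayed between 0.056 and 0.12 over all settings. That of the ER arm was -0.0035, became -0.078 with array weights, and ran from -0.073 (without vector tumor 1) to 0.025 when 1 tumor was left out.

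ATF4 changed sign with array weights (-0.0065). DDIT3 did so without fusion tumor 2 (0.045) or vector tumor 3 (0.071), and HSPA5 without fusion tumor 3 (0.039), vector tumor 2 (0.037) or vector tumor 3 (0.065); left out 1 at a time, tumors gave -0.072 to 0.071 for DDIT3 and -0.11 to 0.065 for HSPA5. The cause was not tested. The other 10 members given in every tumor by the naming rule kept their direction in every setting that tested them. The log2 fold change of EDEM1 was 0.068 with its most variable probe set, and HERPUD1 was then below the filter.

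Tumors sharing a replicate number correlated weakly in their deviations from the group means (0.097, 0.17 and 0.051), short of pairing, although each tumor correlated best with its own number. With the replicate block limma called 8 genes and 0 members, and at an unadjusted p below 0.05 there were 2 members in the ER arm and 3 in the ATF4 arm, with ASNS added to the latter. The same count over all 13694 genes was 910 with the block and 807 without it. Precision is limited by 3 arrays a group and, for dim probe sets, by an unknown background.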
